A study of Mus musculus with 12 samples.

Results

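The respiratory chain and ATP synthase genes were followed through 4 germ cell types of the mouse testis. Members were all probe sets that the platform annotation gives exactly 1 gene symbol, where that symbol names a subunit or assembly factor of complex I (Nduf), complex II (Sdha to Sdhd), complex III (Uqcr), complex IV (Cox and a digit), ATP synthase (Atp5) or cytochrome c (Cycs, Cyct). The rule used names only and no measured value. It took 164 of 29131 probe sets with 1 symbol, which stand for 90 of 15964 genes, and members below are these genes. The cell types, in their order of development, were spermatogonia of type A and of type B, which divide by mitosis, then pachytene spermatocytes and then round spermatids. Total RNA of each was hybridised to 1 array of each of the 3 Affymetrix designs U74Av2, U74Bv2 and U74Cv2, giving 12 arrays. The labels give neither strain, age nor genotype of the mice, nor how cells were isolated, and they do not say whether the 3 arrays of a cell type shared RNA. With 1 array per cell type and design there are no replicates and no test, so each difference below is one between arrays.

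The inner mitochondrial membrane holds 4 respiratory complexes. Complexes I and II pass electrons to ubiquinone, complex III passes them on to cytochrome c, and complex IV, cytochrome c oxidase, passes them to oxygen. Complexes I, III and IV pump protons, and ATP synthase uses the proton gradient to make ATP. Some subunits of complex IV, and cytochrome c itself, exist as a general form and a form known from the testis. Cyct is the testis form of cytochrome c and Cycs its general form, and Cox6b2, Cox7b2 and Cox8c are the testis forms beside Cox6b1, Cox7b and Cox8a. In the mouse the general Cox7b is X-linked, and X-linked genes are known to be silenced in pachytene spermatocytes.

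Values are MAS5 signals, an intensity per probe set in which each array was scaled to a common mean. Signals under a floor of 50.01 to 50.03 units, set within each design, are listed as read, but enter ratios and marker sums at the floor. Where the floor stands in for 1 of the 2 signals, the ratio is a bound and is written "at least". A gene stands for its probe set with the brightest mean signal over the 4 cell types, and signals of different probe sets are not compared. Of the 90 genes, 85 exceeded the floor somewhere among the 4 cell types. The other 5 were Cox14, Cox6a2, Cox7a1, Cox8a and Ndufc2, whose signals lay between 2.90 and 48.3 in every cell type. Genes that were under the floor throughout cannot be called unexpressed, since a probe set may fail.

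The labels were set against marker genes. A sum adds signals of several probe sets, each entered at the floor where it read lower, so a low sum can be mostly floor values. The brightest probe sets weigh most, and a sum is read only across cell types. The summed signal of 10 spermatogonial markers was 4666 in type A, 3518 in type B, 889 in pachytene spermatocytes and 1412 in round spermatids. Of 9 measured between type B and pachytene spermatocytes, 7 fell by 2-fold or more and 1 rose. Among the 10, Kit read 385 in type A and 202 in type B. Sall4 read 248 in type A, 647 in type B, 96.8 in pachytene spermatocytes and 588 in round spermatids. Of 10 pachytene markers, 5 were over the floor in each spermatogonial type and all 10 in pachytene spermatocytes. Their sums were 1640.1 in type A, 1468 in type B, 46849 in pachytene spermatocytes and 42608 in round spermatids. Bright probe sets such as Hspa2 (12268), Tdrd6 (9996) and Ldhc (8691) carry much of the pachytene sum. From type B to pachytene spermatocytes, 8 of the 10 rose by 2-fold or more and none fell that far. Sycp1 and Sycp3 did not pass 2-fold. Sycp1 read 319 in type B and 220 in pachytene spermatocytes, and Sycp3, under the floor in type B, read 60.4 in pachytene spermatocytes. The 12 round spermatid markers summed to 671 in type A, 697 in type B, 3194 in pachytene spermatocytes and 50626 in round spermatids. In the same order, 3, 2, 8 and 10 of these 12 were over the floor. Markers of other testis cells were also read. Those of fibroblasts summed to 5335 in type A, 12236 in type B, 475 in pachytene spermatocytes and 779 in round spermatids, with 7, 8, 2 and 3 of 9 over the floor. Those of peritubular myoid cells summed to 3346, 4966, 806 and 645 in the same order, and those of Sertoli cells to 8328, 6276, 4094 and 1513. Leydig cell markers summed to 932, 1689, 1832 and 794, and those of macrophages and leukocytes to 1419.8, 1966, 756 and 783. The 3 erythroid ones summed to 409, 966, 211 and 193, with 1, 1, 2 and 1 over the floor. The fibroblast collagen genes Col1a1 and Col1a2 were at most 11.4 units in pachytene spermatocytes and round spermatids, against 2054 and 2351 in type B. Of the same list, Dcn and Postn were over the floor in both later cell types. Dcn read 55.7 in pachytene spermatocytes and 291 in round spermatids, against 2782 in type B. Postn read 68.7 and 130.8, against 134.6. These levels moved with the steps described below, and their part in the results was not tested. In RNA of a mixed preparation, fewer cells of a type and less RNA per cell cannot be told apart.

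Promoters of 6 members are shown: those of the cytochrome c pair and of the subunit 6B pair, so that the testis form can be set beside the general form, and those of the assembly factor Ndufaf3 and the complex III core protein Uqcrc1, which were higher in pachytene spermatocytes. Sequences are from RefSeq, build GRCm38.p6, and run 5′ to 3′ along the gene's strand from 250 bases before the start to 50 bases from it on. Capitals mark matches to the motifs named after the sequences.
Cyct, chr2:76360404-76360703, minus strand: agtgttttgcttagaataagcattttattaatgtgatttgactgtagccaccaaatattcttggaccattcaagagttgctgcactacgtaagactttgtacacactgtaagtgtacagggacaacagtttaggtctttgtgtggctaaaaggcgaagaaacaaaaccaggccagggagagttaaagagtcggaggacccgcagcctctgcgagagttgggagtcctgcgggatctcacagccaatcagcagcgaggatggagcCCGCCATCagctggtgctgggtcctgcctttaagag
Cycs, chr6:50566520-50566819, minus strand: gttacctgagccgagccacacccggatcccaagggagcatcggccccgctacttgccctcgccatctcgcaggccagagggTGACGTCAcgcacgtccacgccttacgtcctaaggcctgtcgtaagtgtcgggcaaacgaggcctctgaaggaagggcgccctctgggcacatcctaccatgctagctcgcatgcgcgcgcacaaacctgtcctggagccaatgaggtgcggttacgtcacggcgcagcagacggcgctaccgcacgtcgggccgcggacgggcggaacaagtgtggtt
Cox6b2, chr7:4753045-4753344, minus strand: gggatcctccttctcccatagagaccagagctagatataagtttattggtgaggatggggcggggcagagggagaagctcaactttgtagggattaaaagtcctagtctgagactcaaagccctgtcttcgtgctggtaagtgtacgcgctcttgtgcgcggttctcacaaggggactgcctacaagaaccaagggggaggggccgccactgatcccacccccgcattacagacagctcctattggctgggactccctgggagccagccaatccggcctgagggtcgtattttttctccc
Cox6b1, chr7:30626065-30626364, minus strand: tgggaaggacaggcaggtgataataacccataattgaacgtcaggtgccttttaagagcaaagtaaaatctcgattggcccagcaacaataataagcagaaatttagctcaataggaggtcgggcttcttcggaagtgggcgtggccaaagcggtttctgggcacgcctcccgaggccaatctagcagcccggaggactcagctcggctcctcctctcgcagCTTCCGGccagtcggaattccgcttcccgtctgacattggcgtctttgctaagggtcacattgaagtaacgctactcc
Ndufaf3, chr9:108567387-108567686, minus strand: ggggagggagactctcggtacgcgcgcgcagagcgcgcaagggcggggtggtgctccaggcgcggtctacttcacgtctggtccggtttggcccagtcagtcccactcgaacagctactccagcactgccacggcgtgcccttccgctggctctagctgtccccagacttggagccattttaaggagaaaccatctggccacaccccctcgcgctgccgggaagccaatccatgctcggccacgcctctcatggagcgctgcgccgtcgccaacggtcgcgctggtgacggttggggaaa
Uqcrc1, chr9:108936398-108936697, plus strand: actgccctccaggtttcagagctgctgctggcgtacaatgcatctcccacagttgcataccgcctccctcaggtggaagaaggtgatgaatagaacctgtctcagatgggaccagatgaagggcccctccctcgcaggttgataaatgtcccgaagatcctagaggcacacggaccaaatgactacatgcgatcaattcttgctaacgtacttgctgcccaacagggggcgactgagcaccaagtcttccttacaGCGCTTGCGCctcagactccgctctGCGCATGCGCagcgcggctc
The motifs searched, on both strands, were GCGCA and GCGC with any 1 base between, the letters of the factor NRF1, CCGGAAG, those of GABPA and other ETS factors, TGACGTCA, the cyclic AMP response element, and GATGGCGG, those of YY1. No match shown here overlaps another. The Cyct window held a YY1 match that begins 14 bases after the start and reads on the opposite strand. The Cycs window held a cyclic AMP response element that begins at position -169 from the start. The Cox6b1 window held an ETS match, on the opposite strand, that begins at position -28, while the Cox6b2 and Ndufaf3 windows held none of the 4 motifs. The Uqcrc1 window held 2 NRF1 matches, at 5 and 30 bases after the start.

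The promoter table matched 74 of the 90 members. Among these, 13 (17.6%) held the NRF1 letters, against 5.19% of all 27025 genes with a promoter and 7.17% of the 17491 protein-coding ones. The ETS letters stood in 22 (29.7%), against 9.93% of all genes with a promoter and 12.9% of protein-coding ones. The YY1 letters stood in 8 (10.8%), against 1.97% and 2.62%, and the cyclic AMP response element in 3 (4.05%), against 2.03% and 2.54%. The median number of CpG dinucleotides in the window was 19 in members, 7 over all genes with a promoter and 13 over protein-coding ones. Of the 10 members with a promoter that pachytene spermatocytes held at 2-fold or more over type B spermatogonia, as they did 17.1% of all genes, none held the ETS letters, 1 held NRF1 and 2 held YY1. Of the 64 other members, 22 held the ETS letters, 12 NRF1 and 6 YY1. The members of the first set are few and were chosen by their signals, so these shares are descriptions. A match is a run of letters and was not shown to be a binding site.

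Taken across the 4 cell types, members varied less than genes at large. The median range between the highest and the lowest cell type was 0.98 on the log2 scale over the 85 members, against 1.27 for the 13003 genes that exceeded the floor. A range under 2-fold was found for 43 members (50.6%) and for 37.2% of all genes. By the reading alone, however small the lead, pachytene spermatocytes held the highest signal of 31 members (36.5%), against 20.1% of all genes. Type A spermatogonia were highest for 12 members, type B for 24 and round spermatids for 18. Log2 ratios of shared controls had an SD over the 3 designs of 0.22 at the first 2 steps and 0.43 at the last. Most of the leads of pachytene spermatocytes are smaller than this, such as those over round spermatids for Uqcrc1, Cox6b2 and Ndufb5. The 36.5% is therefore not a share of clear peaks. The heat map of the members shows these patterns by complex.

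**Figure D1:**
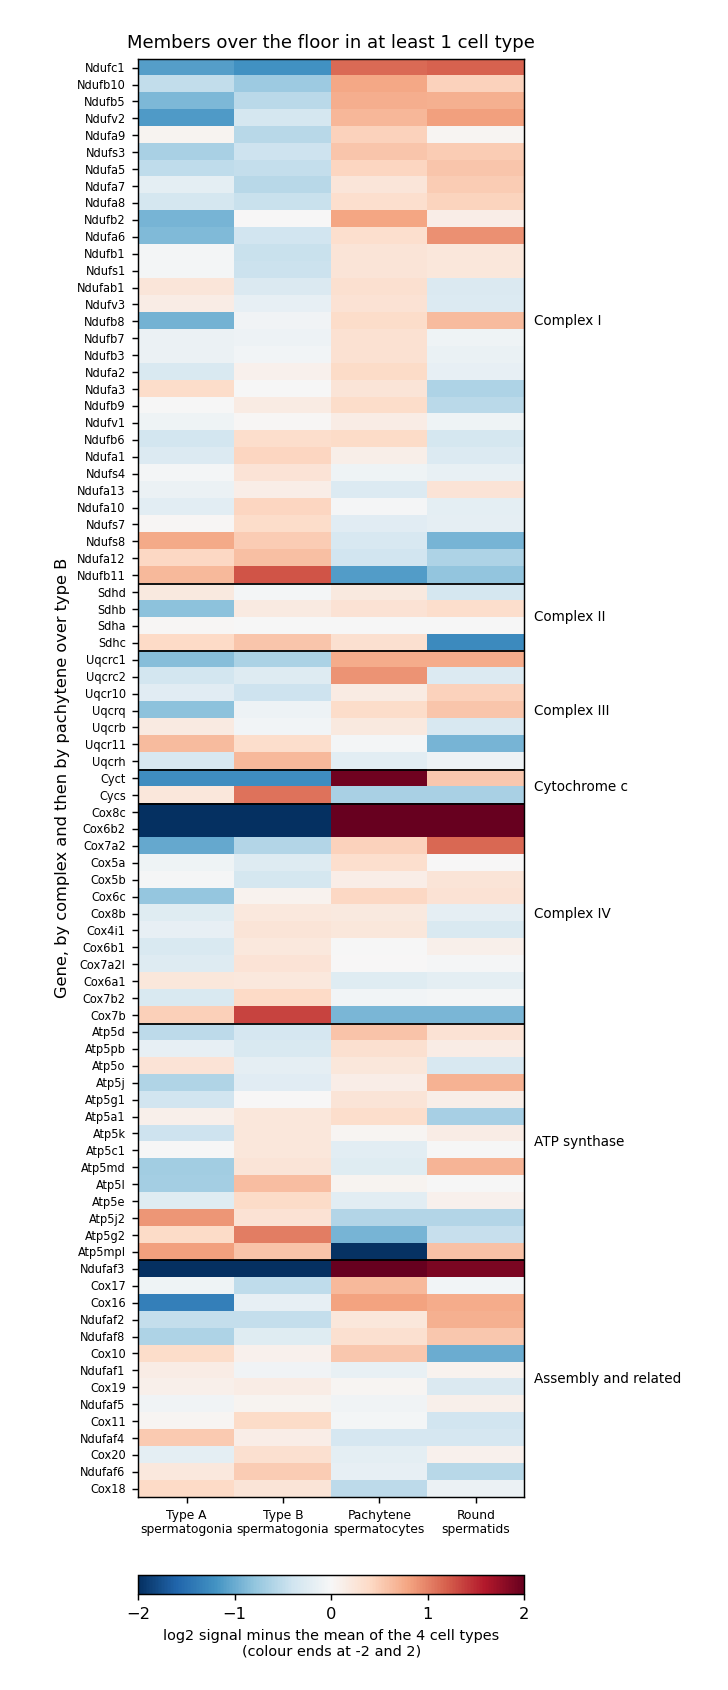
Heat map of the 85 member genes that exceeded the floor (rows, grouped by complex) in the 4 cell types (columns, 1 array each). Colour is the log2 signal minus the gene's mean over the 4 cell types, red above and blue below. Cox8c, Cox6b2, Ndufaf3 and Cyct stand out as high in pachytene spermatocytes and low in spermatogonia. Ndufb11, Cox7b and Cycs are low in pachytene spermatocytes and round spermatids, and Atp5mpl in pachytene spermatocytes alone.

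Type B spermatogonia were compared with type A spermatogonia. Of 83 members measured in 1 or both cell types, 3 were 2-fold or more higher in type B and none lower, against 3.92% of all genes higher and 3.94% lower. The median log2 ratio of members was 0.18, against 0.01 over all 11951 genes measured. Scaling the arrays on bacterial spike-in controls, which read 1.76-fold higher in type B than in type A, turned these counts to 0 members higher and 22 lower, against 0.39% of all genes higher and 33.8% lower, and the median of all genes to -0.76. The median of members lay 0.17 above that of all genes under either scaling.

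Atp5l, the g subunit in the membrane part of ATP synthase, read 287 in type A, 706 in type B, 479 in pachytene spermatocytes and 459 in round spermatids, and was 2.46-fold higher in type B than in type A. Cox16, an assembly factor of complex IV, read 58.4 in type A, 134.5 in type B, 263 in pachytene spermatocytes and 254 in round spermatids, and was 2.30-fold higher in type B than in type A. Type A is the low cell type for both genes, and for Cox16 the type A signal lies just over the floor. Sdhb, the iron-sulfur subunit of complex II, read 364, 733, 784 and 822 in the same order and was 2.01-fold higher in type B than in type A, while its other probe set on U74Av2 gave a log2 ratio of 0.40. With spike-in scaling the log2 ratios of Atp5l, Cox16 and Sdhb were not 2-fold, with lowest values over the alternatives of 0.47, 0.38 and 0.12. By complex, the median log2 ratio was 0.18 for complex I, 0.07 for complex II, 0.12 for complex III, 0.43 for complex IV and 0.31 for ATP synthase. Under spike-in scaling the medians of complex IV and ATP synthase were -0.40 and -0.44, beside the all-gene median of -0.76, so both groups lay above genes at large under either scaling.

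Pachytene spermatocytes, in which homologous chromosomes are paired in meiotic prophase, were compared with type B spermatogonia. Of 84 members, 13 were higher by 2-fold or more and 5 lower, against 17.1% of all 12281 genes higher and 23.2% lower. The share of members higher (15.5%) is near that of all genes, and the share lower (5.95%) is below it. The median log2 ratio was 0.25 for members and -0.28 over all genes. Spike-in scaling gave 40 members higher and 5 lower, against 29.0% and 10.1% of all genes, with an all-gene median of 0.35. Scaling on a common median gave 29 higher and 5 lower, against 25.5% and 12.5% of all genes, with an all-gene median of 0.18. The median of members lay 0.53 above that of all genes with the main scaling, 0.63 above it with spike-ins and 0.59 above it with the common median. Without the 4 testis isoforms, 10 of 80 members were higher and 5 lower, with a median of 0.24.

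Cox8c, the testis form of the smallest subunit of complex IV, read 419 in type A, 272 in type B, 20127 in pachytene spermatocytes and 12074 in round spermatids. The log2 ratio of pachytene spermatocytes over type B spermatogonia was 6.21, rank 47 from the top of 12281 genes. The brightest probe set is on U74Cv2 and its name ends in _f_at, which marks probes that can share sequence with related transcripts. A U74Av2 probe set without such an ending read 311, 352, 5516 and 4148 in the order of development, a log2 ratio of 3.97 between pachytene and type B. One more on U74Av2, with type B at the floor, gave at least 2.47, while a U74Cv2 probe set that read between 93.2 and 141 in every cell type gave -0.20. So 3 of its 4 probe sets over the floor were higher in pachytene spermatocytes, by sizes that differ. The promoter of Cox8c is not shown.

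Cox6b2, the testis form of a subunit that lies on the face of complex IV where cytochrome c docks, read 237 in type A, 159 in type B, 5404 in pachytene spermatocytes and 5368 in round spermatids. It was 34.1-fold higher in pachytene cells than in type B, and round spermatids and pachytene spermatocytes read almost alike. A second probe set on U74Av2 read 129.8, 122.9, 3814 and 1838, a log2 ratio of 4.96 between pachytene and type B, but one on U74Cv2 gave -0.78. On that second probe set the log2 ratio of round spermatids over pachytene was -1.05. The name of the brightest Cox6b2 probe set also ends in _f_at. Those of its others over the floor end in _i_at and _r_at, so none is free of a special ending. The general form Cox6b1 read 73.8, 106 and 91.1 in type A, type B and pachytene spermatocytes and 97.9 in round spermatids, within 2-fold throughout.

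Cyct, the testis form of cytochrome c, read 42.1 in type A, 38.5 in type B, 456 in pachytene spermatocytes and 172 in round spermatids. Both spermatogonial types were at the floor, so pachytene spermatocytes were at least 9.12-fold higher than type B. Cycs, its general form, read 91.9 in type A, 168 in type B, 36.5 in pachytene spermatocytes and 29.1 in round spermatids. Cycs was at least 3.35-fold lower in pachytene cells than in type B, so the 2 forms differed in opposite directions at this step. Each is measured by 1 probe set on U74Av2, and with a doubled floor, which stands in for its pachytene signal, the bound for Cycs was a log2 ratio of -0.74 or lower. The plot of the isoform pairs shows the course of each form.

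**Figure D2:**
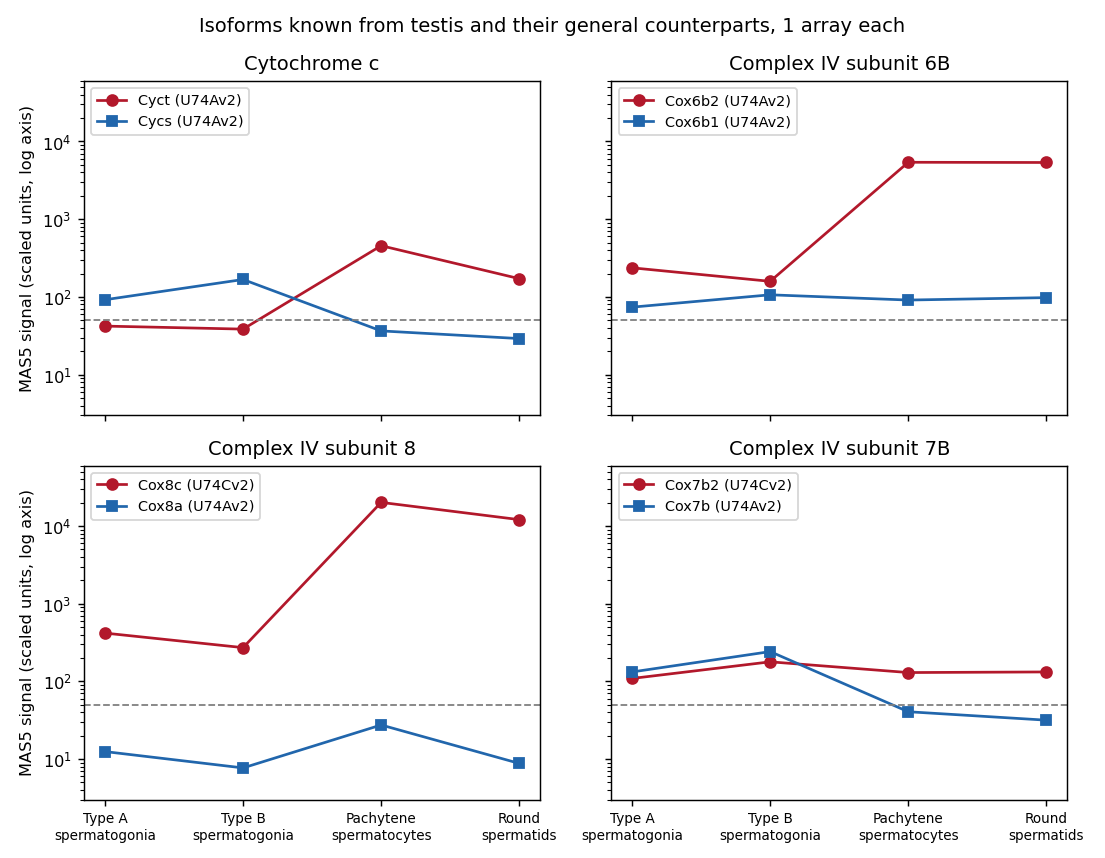
Signals of the isoforms known from testis (red circles) and their general counterparts (blue squares) in the 4 cell types, 1 array per point, on a log axis of scaled MAS5 units. The dashed line is the floor. Cyct, Cox6b2 and Cox8c are high in pachytene spermatocytes and round spermatids and Cycs and Cox7b are over the floor in spermatogonia alone, while Cox7b2 stays between 109 and 179, and Cox8a is under the floor. Levels of different probe sets are not comparable.

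Cox7b2, the testis form of subunit 7B, had 1 probe set, on U74Cv2, which read 109 in type A, 179 in type B, 130 in pachytene spermatocytes and 132 in round spermatids. On that design the highest negative control read 69.1 in type A, 103.5 in type B, 61.2 in pachytene spermatocytes and 59.0 in round spermatids. Cox7b2 stayed within 2-fold throughout, and the name of its probe set has a special ending, _i_at. Cox7b, its X-linked general counterpart, read 132, 242, 40.7 and 31.7 in the order of development and was at least 4.84-fold lower in pachytene cells than in type B. Ndufb11, an X-linked accessory subunit in the membrane arm of complex I, read 170.0 in type A, 259 in type B, 47.0 in pachytene spermatocytes and 62.8 in round spermatids, at least 5.18-fold lower in pachytene than in type B. The remaining X-linked member, Ndufa1, read 38.2, 81.7, 65.7 and 45.5 and stayed within 2-fold at this step. Among all 368 X-linked genes measured at this step, 196 (53.3%) were at least 2-fold lower in pachytene spermatocytes and 4 higher, with a median log2 ratio of -1.05, against -0.26 for genes outside the X chromosome. The 81 autosomal members had 13 higher and 3 lower, against 17.6% and 22.3% of all genes outside the X chromosome.

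Of the other forms with tissue-bound expression, Cox6a2 and Cox7a1, known from heart and skeletal muscle, were under the floor in every cell type. Cox8b, a form known from the same tissues, read between 100.5 and 137.8 on a probe set whose name ends in _r_at. Its other probe set, on the same design and without a special ending, was under the floor in every cell type, between 11.2 and 24.1. Cox4i1, the general form of subunit 4, read 415, 557, 546 and 378 in the order of development, and Cox6a1 read 2242, 2196, 1606 and 1671. Both stayed within 2-fold at each step. Cox7a2, the general form of subunit 7A, read 768 in type A, 1033 in type B, 2146 in pachytene spermatocytes and 3431 in round spermatids and was 2.08-fold higher in pachytene than in type B, while its U74Cv2 probe set gave a log2 ratio of -1.91.

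Complex I, which oxidises NADH, had a median log2 ratio of 0.44 over 31 subunits between pachytene spermatocytes and type B spermatogonia, with 23 above 0. The highest reading was in pachytene spermatocytes for 15 of these 31 subunits, against 20.1% of all genes. Most of the 15 led by less than the spread of controls, among them Ndufb5 and Ndufs3. Ndufc1, an accessory subunit of the membrane arm, read 294 in type A, 271 in type B, 1374 in pachytene spermatocytes and 1425 in round spermatids, 5.06-fold higher in pachytene than in type B. Its U74Cv2 probe set read between 158 and 191 and gave -0.05. Ndufb10, of the membrane arm, read 320 and 272 in type A and type B, 766 in pachytene and 620 in round spermatids, 2.82-fold higher in pachytene than in type B. Ndufb5, another accessory subunit, was 2.40-fold higher, at 3139 in pachytene spermatocytes against 1307 in type B, on a single probe set whose name ends in _f_at. Spermatogonia were the low cells for both. Ndufv2, a core subunit with an iron-sulfur cluster, was 2.03-fold higher, at 1383 in pachytene against 682 in type B. Ndufa9, an accessory subunit, was 2.02-fold higher, at 1061 in pachytene against 527 in type B, while its U74Cv2 probe set gave a log2 ratio of -1.46. Type B was the low cell type for Ndufa9, with 803 in type A and 796 in round spermatids. For each of these 5 genes the round spermatids also read above type B. Ndufs3, a core subunit, read 1010.4 in pachytene against 515 in type B, just under 2-fold, and Ndufs8, a core iron-sulfur subunit, read 1771 in pachytene against 3153 in type B, so the direction differed between core subunits.

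Complex III had a median log2 ratio of 0.48 over 7 genes, 5 of them above 0. Cyc1, the cytochrome c1 of this complex, is outside the name rule and not counted here, and its log2 ratio was -1.26. Uqcrc1, one of its core proteins, read 605 in type A, 705 in type B, 1821 in pachytene spermatocytes and 1819.5 in round spermatids, 2.58-fold higher in pachytene than in type B, and a U74Bv2 probe set, with type B at the floor, gave a log2 ratio of at least 1.14. Uqcrc2, the other core protein, read 413, 449, 996 and 443, with pachytene spermatocytes 2.22-fold above type B and alone in being high. The name of its single probe set ends in _f_at. Uqcrh, the hinge protein, read 548 in pachytene against 989 in type B. In complex II, Sdhb, Sdhc and Sdhd differed by less than 2-fold on their brightest probe sets, while the U74Bv2 probe set of Sdhc gave a log2 ratio of -1.22 and the U74Cv2 probe set of Sdhd -0.95.

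By its median, ATP synthase stood near genes at large. Its 14 subunits had a median log2 ratio of -0.32 between pachytene spermatocytes and type B spermatogonia, beside -0.28 over all genes. None was at least 2-fold higher and 2 were lower, against 17.1% and 23.2% of all genes. Spike-in scaling gave a median of 0.45 beside 0.35 over all genes, and the common median 0.20 beside 0.18. Atp5mpl, a small membrane protein of the complex, read 1265 in type A, 1068 in type B, 181 in pachytene spermatocytes and 1081 in round spermatids. Its single probe set was 5.89-fold lower in pachytene than in type B, and pachytene was the low cell type against 3 others that lie close together. Atp5g2, which encodes subunit c of the rotor ring, read 186, 289, 74.8 and 103.4 in the order of development, 3.86-fold lower in pachytene than in type B, and a U74Cv2 probe set gave a log2 ratio of -0.94. Atp5a1, the alpha subunit of the catalytic head, read 2020.3 in pachytene against 1861 in type B, and Atp5o, in the stalk, 902 against 679, both within 2-fold.

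**Figure D3:**
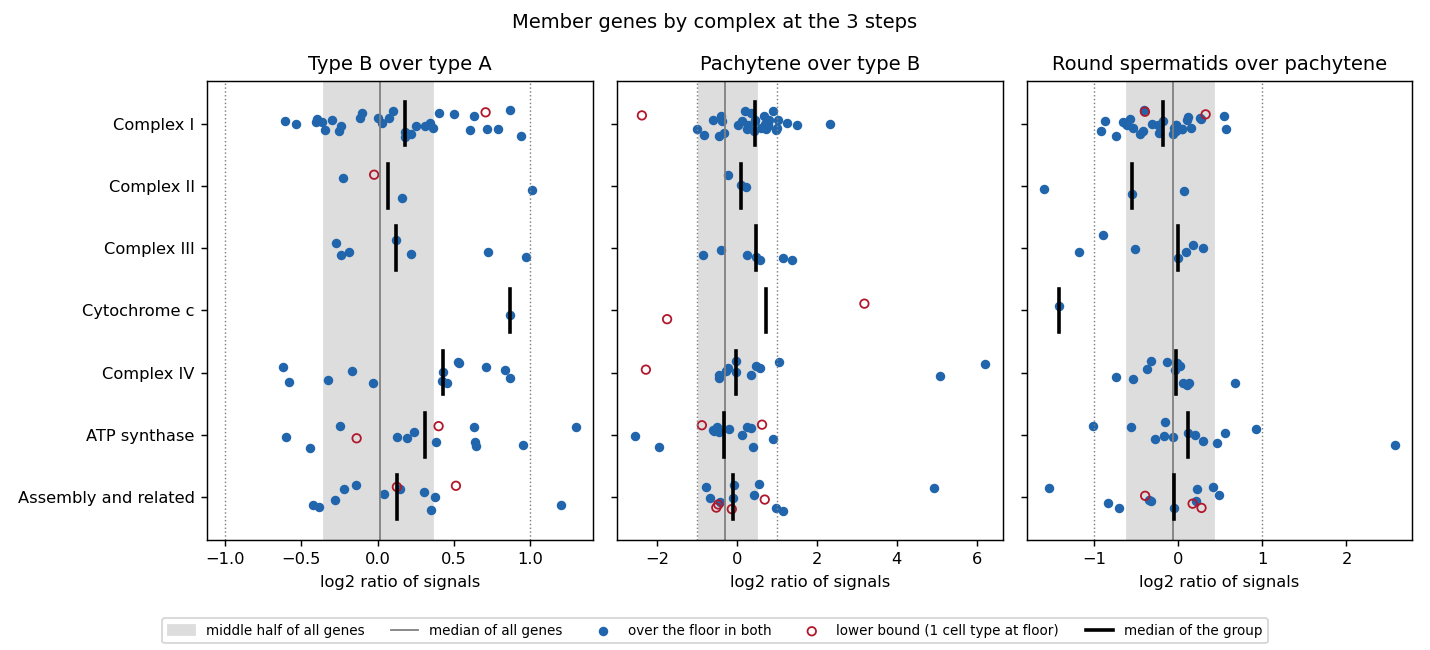
Log2 ratio of the signals of each member gene at the 3 steps, by complex (rows). Filled points are genes over the floor in both cell types, open points lower bounds, black bars the group's median, the grey band the range between the quartiles of all genes with the grey line at their median, and dotted lines mark 2-fold. Complexes I and III lie to the right of the all-gene median at the middle step, with medians of 0.44 and 0.48 against -0.28, and ATP synthase lies beside it at -0.32. Cyc1 of complex III, outside the name rule, is not plotted.

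Assembly factors and related proteins had a median log2 ratio of -0.09 over 14 genes at this step. Ndufaf3, which helps to assemble complex I, read 157 in type A, 174 in type B, 5339.9 in pachytene spermatocytes and 2990 in round spermatids, 30.7-fold higher in pachytene than in type B and rank 128 of 12281 genes. A U74Cv2 probe set read 16.5, 12.5, 1914 and 384 and, with type B at the floor, gave a log2 ratio of at least 5.26. On both designs the pachytene spermatocytes were highest and the round spermatids next. The log2 ratio of 4.94 lies just below the 5.09 of Cox6b2. Cox17, a copper chaperone for complex IV, read 402 and 299.9 in type A and type B, 666 in pachytene and 409 in round spermatids, 2.22-fold higher in pachytene than in type B. None of the 14 was at least 2-fold lower.

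Probe sets of the same gene did not always agree at this step. Of 25 member genes with several probe sets over the floor, 10 had 1 or more probe sets whose log2 ratio had the opposite sign to that of the brightest and differed from it by over 2-fold: Atp5d, Cox6b2, Cox7a2, Cox8c, Ndufa6, Ndufa9, Ndufab1, Ndufb2, Ndufc1 and Sdhd. Of the probe sets other than the brightest, 6 of 16 on U74Cv2 had the sign of the brightest, against 10 of 14 on U74Av2 and 5 of 5 on U74Bv2. Over all pairs of probe sets of a gene, 61.2% of 49 member pairs lay within 2-fold of each other and 53.1% had the same sign, against 64.7% and 70.6% of pairs over all genes. Between type B and type A, a step at which few genes passed 2-fold, 91.5% of 47 member pairs lay within 2-fold, against 82.1% over all genes. The same sign was found for 66.0% of these member pairs, against 56.9% over all genes. The plot of one probe set against another shows which genes differ.

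**Figure D4:**
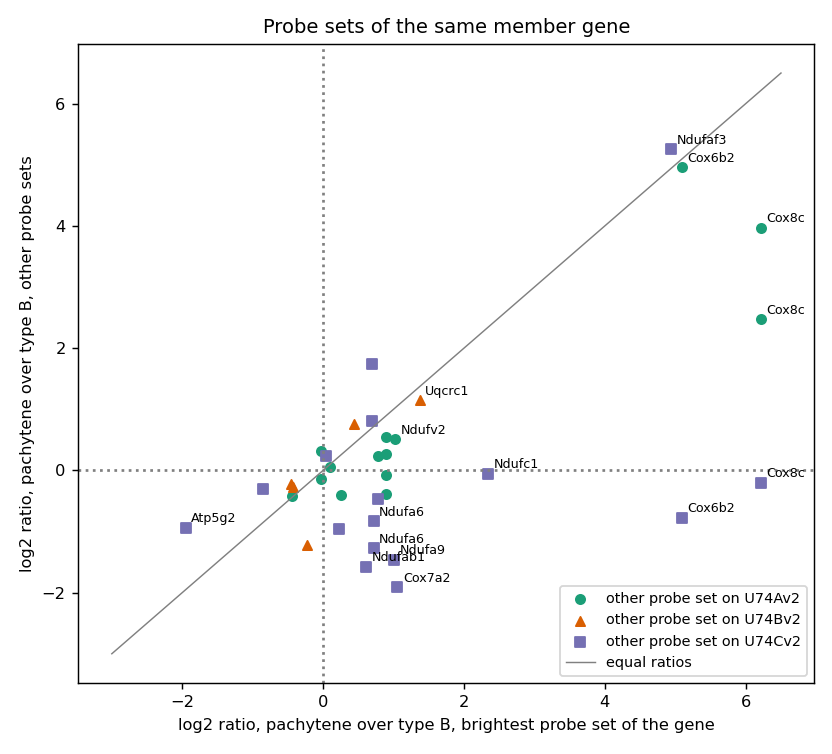
Log2 ratio of pachytene spermatocytes over type B spermatogonia for the brightest probe set of a member gene (x axis) and its other probe sets over the floor (y axis), coloured by design. The grey line marks equal ratios and dotted lines mark 0. Ndufaf3 and a Cox6b2 probe set lie near the line, while U74Cv2 probe sets of Cox6b2, Cox7a2, Ndufa9 and Ndufab1 lie below 0.

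Round spermatids, the haploid cells after meiosis, were compared with pachytene spermatocytes. Of 80 members, 1 was at least 2-fold higher and 5 lower, against 10.5% of all genes higher and 13.7% lower. The median log2 ratio was -0.06 for members and -0.06 over all 11203 genes. Spike-in scaling, in which the controls of the 3 designs gave unlike ratios of 1.20, 1.14 and 0.74 between these cell types, gave 1 member higher and 9 lower, against 11.1% and 15.9% of all genes.

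Atp5mpl was 5.96-fold higher in round spermatids than in pachytene spermatocytes, at 1081 against 181, and so lay close to its signals in spermatogonia. Sdhc, a membrane anchor of complex II, read 592 in type A, 662 in type B, 565 in pachytene spermatocytes and 188 in round spermatids, 3.01-fold lower in round spermatids than in pachytene, while its U74Bv2 probe set gave a log2 ratio of 0.27. Cox10, an enzyme of the path to the haem of complex IV, read 567, 468, 634 and 220.1 and was 2.88-fold lower in round spermatids than in pachytene. Its second U74Bv2 probe set gave a log2 ratio of -2.06. Round spermatids were the lowest of the 4 cell types for Sdhc and Cox10. Cyct was 2.66-fold lower in round spermatids, at 172 against 456 in pachytene spermatocytes, and Uqcrc2 2.25-fold lower, at 443 against 996. Atp5a1 was 2.01-fold lower, at 1003 in round spermatids against 2020.3 in pachytene, at the edge of the threshold. Cox8c and Ndufaf3 read 12074 and 2990 in round spermatids, 1.67-fold and under 2-fold below pachytene spermatocytes, although the U74Cv2 probe set of Ndufaf3 gave a log2 ratio of -2.32, and Cox6b2 was the same within 1.01-fold. By complex, the median was -0.18 for complex I, 0.00 for complex III, -0.02 for complex IV and 0.12 for ATP synthase, and no complex I subunit passed 2-fold.

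Genes that supply or surround the chain were read beside the members. Of 17 genes of the citric acid cycle and pyruvate dehydrogenase, which feed electrons to the chain, 7 were higher by 2-fold or more and 6 lower in pachytene cells than in type B, against the 17.1% and 23.2% of all genes. Pdha2, the testis form of the E1 alpha subunit of pyruvate dehydrogenase, read 100.01 in type A, 67.7 in type B, 1955 in pachytene spermatocytes and 1749 in round spermatids, 28.9-fold higher in pachytene than in type B. Pdha1, its X-linked general form, chosen here after its values were seen, read 162 and 203 in type A and type B and was under the floor in both later cell types, at least 4.05-fold lower in pachytene than in type B, so here too the testis form was higher and the general form lower. Sucla2 and Suclg1, subunits of succinyl-CoA ligase, were 4.96-fold and 4.64-fold higher in pachytene, while Suclg2, the GTP-forming partner subunit, was 5.15-fold lower. Idh3g, Fh1 and Mdh2, enzymes of the cycle, were 6.20-fold, 4.50-fold and 4.48-fold lower.

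Of 23 assembly factors and electron entry genes outside the rule, 4 were higher by 2-fold or more in pachytene cells than in type B. Another 4 were lower. These shares, 17.4% each, stand beside 17.1% of all genes higher and 23.2% lower. Etfa, which carries electrons from fatty acid oxidation, was at the floor in pachytene against 394 in type B, at least 7.88-fold lower, Etfb was 3.19-fold lower, and Bcs1l, a chaperone of complex III assembly, 2.85-fold lower. Cyc1, the cytochrome c1 of complex III, read 826 in pachytene against 1976 in type B, 2.39-fold lower. Uqcc1 and Uqcc2, assembly factors of complex III, were at least 3.10-fold and 2.52-fold higher, although the type B signal of Uqcc1 was below the floor and below the brightest negative control on that array. At the step to round spermatids 6 of 21 of these genes were higher and 2 lower, against 10.5% and 13.7% of all genes. Gpd2, which passes electrons from glycerol 3-phosphate to ubiquinone, read 53.2 in type A, 80.3 in type B, 212 in pachytene spermatocytes and 2852 in round spermatids, 13.4-fold higher in round spermatids than in pachytene. Nubpl, a complex I assembly factor, read 476 in round spermatids against 40.2 in pachytene, at least 9.51-fold higher. Sdhaf2, an assembly factor of complex II, was 7.98-fold lower, at 76.2 in round spermatids against 608 in pachytene.

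Of 6 carriers and porins, Slc25a4, the ADP/ATP carrier best known from muscle and heart, was 4.14-fold lower in pachytene spermatocytes, at 173 against 715 in type B, and Vdac2, a porin, 2.12-fold higher. Of 15 regulators of mitochondrial genes, Mterf3, a regulator of mitochondrial transcription or translation, had a log2 ratio of 1.85 in pachytene over type B, at 224 against 62.4 in type B. Tfam, which packs mitochondrial DNA, read 4.10 in pachytene against 101.6 in type B, and Pprc1 20.8 against 124.9, at least 2.03-fold and 2.50-fold lower. The type B signal of Tfam is below the 103.5 units that a negative control reached on that array.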

How the data were processed

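The authors deposited 1 linear intensity signal for each probe set, and per the submitters' processing notes the tool was MAS5. Version and settings are not given in the sources used here, and the values had been scaled to a 2% trimmed mean. Each array was set to the geometric mean of the trimmed means of its design, a floor of 0.4 of it was applied and log2 taken. Negative controls were over the floor in 22 of 228 readings, the highest at 103.5. Genes were named through the platform annotation, and a gene stands for its brightest probe set by mean signal. That choice also reflects the level of a design: controls read 1.96 times their U74Av2 signal on U74Bv2 and 3.16 times on U74Cv2. Ratios stay within a design. Members and gene lists were chosen with earlier results of these data known. Named are the measured isoforms, each member past 2-fold at a step, others only as examples chosen after their values were seen, and of other lists at most 4 genes per step and direction by size of ratio. No test was run with 1 array per cell type and design, so the small number of arrays limits precision. Promoters and positions are from RefSeq, GRCm38.p6. The calculation was tested on simulated data. Python 3.11.15, pandas 2.3.3, numpy 2.4.6 and scipy 1.17.1 were used. Alternatives changed the scaling, the floor, the probe set and the fold.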

Additional observations from a re-analysis of the deposited data

How the results depend on the processing

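The scaling between arrays moved the results most, and it moved the all-gene medians too. These were -0.76 for type B over type A with spike-ins, and for pachytene over type B 0.35 with spike-ins and 0.18 with the common median. The shift was not the same for all genes. For round spermatids over pachytene, the median of members minus that of all genes was 0.008 with the main scaling and -0.14 with spike-ins. With spike-in controls, the type B over type A median of members was -0.59 with 0 higher and 22 lower (0.39% and 33.8% of all genes). The pachytene over type B median was 0.98 with 40 higher (29.0% of all genes), and for round spermatids over pachytene 9 members were lower (15.9% of all genes). A common median gave pachytene over type B a median of 0.77 with 29 higher (25.5% of all genes). The lower floor of 0.2 gave 6 members higher in type B than in type A (6.43% of all genes). At 4-fold, 0 members were higher in type B, 5 were higher and 3 lower in pachytene cells than in type B, and 0 were lower in round spermatids than in pachytene. Over all genes, 20 of 11951 were 4-fold higher in type B than in type A, 970 of 12281 higher and 668 lower in pachytene cells than in type B, and 255 of 11203 lower in round spermatids than in pachytene. The following group medians changed sign, and those under a scaling are to be read beside these all-gene medians. For type B over type A with spike-ins they were -0.40 for complex IV, -0.44 for ATP synthase, -0.35 for general counterparts and -0.33 for carriers, and 0.18 for testis isoforms without probe sets of special endings. For pachytene over type B, ATP synthase was 0.45 with spike-ins and 0.20 with the common median, and general counterparts 0.44 and 0.18. The outside assembly and electron entry genes were 0.20, 0.30, 0.031 (floor of 0.8) and 0.35 (U74Av2 only). Carriers were 0.059 (floor of 0.8) and 0.026 (U74Av2 only), and regulators 0.040 with spike-ins and 0.044 on U74Av2. The all-gene medians of pachytene over type B were -0.20 with the floor of 0.8 and -0.22 on U74Av2. The cause of the changes under other settings than scaling was not tested. Under the alternatives, the remaining 83 values of the counts and medians of all members moved by less than the spread of controls or by 1.5 times at most, among them the members higher in type B than in type A, which were 2 in place of 3 under 6 alternatives. Of 27 named member ratios of at least 2-fold, 19 stayed at least 2-fold under each alternative that gave a value. The exceptions and their nearest values to 0 were Atp5l 0.47, Cox16 0.38, Sdhb 0.12, Atp5g2 -0.98, Cycs -0.74 (a bound), Ndufb10 0.75, Ndufv2 0.76 and Atp5a1 -0.999. Among the 19, the ratios of Cox6b2, Uqcrc2 and Ndufb5 for pachytene over type B had no value without probe sets of special endings. No paired analysis was possible because each cell type has 1 array per design, and for the same reason no replicate could be left out.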

Other observations

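There were 17 probe sets whose annotation gives several symbols, a respiratory chain or ATP synthase gene among them, and they were left out of the counts. Most pair a subunit with a copy of it, so their signals cannot be given to 1 gene. The brightest probe set of Cox7c, a subunit of complex IV, and Gm12338 read 3198 in type A, 4198 in type B, 4472 in pachytene spermatocytes and 5603 in round spermatids, within 2-fold at each step. A probe set of Ndufs6, a complex I subunit, and Ndufs6b on U74Av2 read 529 and 487 in type A and type B, 1053 in pachytene spermatocytes and 949 in round spermatids. Its log2 ratio between pachytene and type B was 1.11, and a second on U74Av2 gave 0.97. One on U74Cv2 gave -2.43, at 51.2 in pachytene against 276 in type B. A probe set shared by Ndufs5 and its pseudogene read 368, 366, 560 and 502 in the order of development.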
